A study of Mus musculus with 6 samples.

Results

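The circadian clock genes Clock, Arntl, Per1, Per2, Per3, Cry1, Cry2, Dbp and Tef were followed from total RNA into RNA recovered with an antibody against the RNA-binding protein hnRNPK. The 9 genes were taken as a list of names and found by Ensembl identifier among the 53379 genes of the count tables. All 9 passed the filter on low counts, as did 16929 genes in all. The material was Min6, a mouse insulinoma line used as a model of the pancreatic beta cell, at passage 31. Every library, in both groups, came from cells kept in 25 mM glucose with 500 µM palmitic acid for 30 h, which the labels name glucolipotoxicity. The groups were 3 libraries of hnRNPK immunoprecipitated (IP) RNA and 3 libraries of total RNA from the lysate. Neither unstressed cells nor an IP with a control antibody was analysed here, so capture by hnRNPK and capture by beads or antibody cannot be told apart. The time of day and any synchronisation of the cultures are not given in the sources at hand, and each value averages over whatever clock phases the cells were in.

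The mammalian clock is a feedback loop of transcription and translation. CLOCK and ARNTL (also called BMAL1) pair and bind E-box elements, and so switch on the Period and Cryptochrome genes, whose proteins return to the nucleus and repress that pair. PER and CRY proteins are marked by kinases and removed through ubiquitin ligases, which sets the pace of the loop. DBP and TEF are bZIP factors of the PAR family that carry the rhythm to D-box elements of output genes. In the beta cell the clock is known for its part in the daily pattern of insulin secretion. hnRNPK holds KH domains, which bind single-stranded C-rich RNA.

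C-rich stretches of the mRNAs are shown because they are the kind of sequence that KH domains of hnRNPK are known to bind. For each gene the transcript with the longest coding sequence was searched for the 30-base window, within 1 exon, that holds the most C. The 6 shown belong to the members with the highest and the lowest fold change, Per1 and Cry1, their relatives Per2 and Cry2, and Clock and Dbp. Runs of at least 3 C are in capitals, the sequences are from GENCODE M21 transcripts on GRCm38 (mm10), and each reads 5′ to 3′ on the strand of the gene.
Per1: CCCtgCCCCCaccacctctcagCCCCCCCC
Per2: tccagctgCCCCtctgcaCCCttCCCCacc
Cry1: ccgcgCCCCgcctcggcgtcgcctcctCCC
Cry2: ccagCCCCacaggcctcagCCCCtacctgc
Clock: CCCtccttcgcaccaccagcaacaccagcc
Dbp: gccacctcctcctgCCCCCtcctccgCCCC
The Per1 window lies in the coding sequence (chr11:69106867-69106896, plus strand) and holds 22 C. Of 13476 tested coding genes, searched without the limit to 1 exon, 5.95% had a window at least as rich. The windows of Per2 (chr1:91424272-91424301, minus strand, 18 C), Cry2 (chr2:92416213-92416242, minus strand, 17 C) and Clock (chr5:76216772-76216801, minus strand, 17 C) are also coding. Those of Cry1 (chr10:85184609-85184638, minus strand, 19 C) and Dbp (chr7:45705187-45705216, plus strand, 21 C) lie in the 5′ UTR. The median over the 13476 genes, in the same search without the exon limit, was 17 C. A window is a description of the letters and not a mapped binding site.

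Total counts were 38764925 to 46222181 in the IP libraries and 46185284 to 52735957 in total RNA. Values below are counts per 1e6 reads (CPM) scaled with TMM factors. All 10 beta cell markers examined had counts, with a summed level of 21630 to 31119 CPM in total RNA and 5975 to 7366 CPM in the IP. Most of that sum in total RNA was Iapp (14161 CPM on average, against 1461 in the IP) and Ins2 (10471 against 1953). Of the 10, 5 were depleted in the IP (33.6% of all genes tested), among them Ins1, Ins2 and Iapp. The other 5 were enriched (28.9% of all genes tested), namely Pdx1, Nkx6-1, Mafa, Slc2a2 and Slc30a8, at log2 fold changes of 0.30 to 1.52. Those of Mafa (0.34), Slc2a2 (0.50) and Slc30a8 (0.30) are near in size to a shift from scaling. Library totals in place of TMM factors shifted all genes by −0.43. The 4 exocrine and duct markers summed to at most 1.21 CPM in any library, with Cpa1 at 0 counts throughout, and 5 stromal, endothelial and immune markers summed to 2.55 to 7.73 CPM. Among 5 markers of other islet cells, summed at 123 to 171 CPM, Gcg was at 151 CPM on average in total RNA and the others at 2.14 CPM or less. Hnrnpk itself, which was not perturbed in this design, had 141 ± 17.7 CPM in the IP and 188 ± 9.56 CPM in total RNA (SD, n = 3 each). Genes with at least 1 count numbered 17471 to 21306 in the IP and 21805 to 22625 in total RNA. The libraries are bulk, so fewer cells with a transcript and less of it in each cell cannot be told apart.

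The clock mRNAs did not behave as a block. Per1 was 6.28-fold higher in the IP than in total RNA and Clock 2.48-fold higher, whereas Cry1 was 2.62-fold lower and Dbp 1.85-fold lower. Cry2, Per2, Per3 and Tef were 1.29-fold to 1.59-fold higher, and Arntl did not pass the test. Calls were made by edgeR at a Benjamini-Hochberg (BH) adjusted p under 0.05 over all 16929 genes. By this rule 6 of the 9 were enriched (28.9% of all genes tested) and 2 were depleted (33.6% of all genes tested). In 8 of the 9 the groups did not overlap (71.4% of all genes tested). The median log2 fold change, IP minus total RNA, was 0.48 for the 9 genes and −0.07 for all genes. The number enriched depends on the scale set between the groups. With library totals in place of TMM factors, which shifted the median of all genes by −0.43, Per1 and Clock were enriched and Cry1 and Dbp depleted. That is 2 of the 9 enriched and 2 depleted, where 20.4% and 43.0% of all genes tested were. Over all genes, 46.3% of calls were enrichments with TMM factors and 32.1% with library totals.

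**Figure D1:**
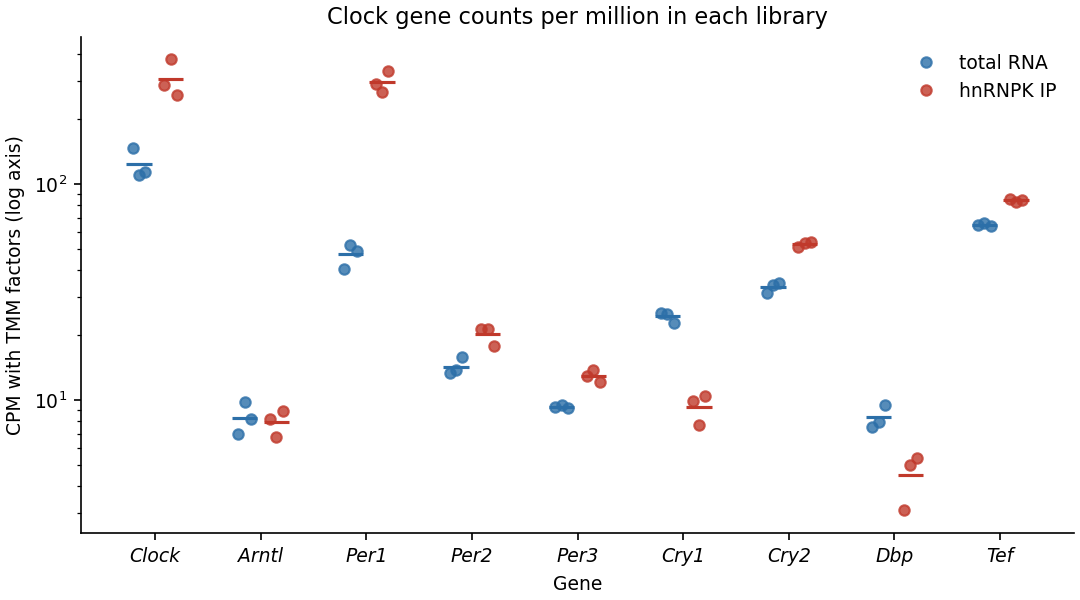
CPM with TMM factors (log axis) of the 9 clock genes, with 1 point for each of 3 total RNA libraries (blue) and 3 hnRNPK IP libraries (red) and a bar at the group mean. Per1 and Clock lie higher in every IP library, Cry1 and Dbp lower, and the Arntl groups overlap.

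The activators, Clock and Arntl, parted in the IP. Clock (ENSMUSG00000029238.11, chromosome 5, 76209868 to 76304792, minus strand) had 287, 379 and 260 CPM in IP libraries 1, 2 and 3, and 148, 111 and 114 CPM in total RNA libraries 1, 2 and 3. Every IP library lay above every total RNA library, with IP library 2 the highest and total RNA library 1 the nearest to the IP. The log2 fold change was 1.31 ± 0.17 (SE; BH-adjusted p in edgeR = 0.000270). Arntl (ENSMUSG00000055116.8, chromosome 7, 113207465 to 113314126, plus strand), which encodes the partner of CLOCK, had 8.18, 6.79 and 8.93 CPM in the IP and 7.0, 9.80 and 8.19 CPM in total RNA. Its groups overlapped, and the log2 fold change was −0.06 ± 0.21 (BH-adjusted p in edgeR = 0.814). That estimate moved between −0.49 and 0.10 over the alternatives and was called in none of them. It rests on 224 to 528 reads a library, against 5980 to 12493 for Clock.

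The Period genes encode the PER repressors, and Per1 stood far above the other two. Per1 (ENSMUSG00000020893.17, chromosome 11, 69095217 to 69109960, plus strand) had 291, 268 and 333 CPM in the IP against 40.6, 52.3 and 49.2 CPM in total RNA. The lowest IP library held more than every total RNA library, and the log2 fold change of 2.65 ± 0.13 exceeded that of 98.4% of genes tested (BH-adjusted p in edgeR = 2.79e-06). It kept its call under all 15 alternatives, at 2.22 to 2.76. Per2 (ENSMUSG00000055866.9, chromosome 1, 91415982 to 91459324, minus strand) had 21.4, 21.5 and 17.8 CPM in the IP against 13.4, 13.8 and 15.9 CPM in total RNA. Per3 (ENSMUSG00000028957.12, chromosome 4, 151003652 to 151044665, minus strand) had 13, 13.8 and 12.2 CPM against 9.28, 9.5 and 9.21 CPM. For both genes every IP library was above every total RNA library, but by a small step. The log2 fold change was 0.49 ± 0.15 for Per2 and 0.48 ± 0.15 for Per3 (BH-adjusted p in edgeR = 0.0200 and 0.0239). The Per2 call was lost without IP library 1 (0.42), total RNA library 1 (0.48) or total RNA library 2 (0.50). The Per3 call was lost without IP library 1 (0.44) or any 1 of total RNA libraries 1, 2 and 3 (0.51, 0.53 and 0.50), and with an offset for gene length (0.04).

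The Cryptochrome genes, whose proteins bind and repress CLOCK and ARNTL, went opposite ways. Cry1 (ENSMUSG00000020038.10, chromosome 10, 85131700 to 85185064, minus strand) had 9.92, 7.70 and 10.4 CPM in the IP and 25.4, 25.2 and 22.9 CPM in total RNA. All IP libraries were below all total RNA libraries, at a log2 fold change of −1.39 ± 0.16 (BH-adjusted p in edgeR = 0.000143). Cry2 (ENSMUSG00000068742.11, chromosome 2, 92403646 to 92434043, minus strand) had 51.3, 53.6 and 54.2 CPM in the IP and 31.3, 34.2 and 34.9 CPM in total RNA. Here the IP libraries were all above, at 0.66 ± 0.10 (BH-adjusted p in edgeR = 0.000483). Cry1 kept its call under all 15 alternatives, at −1.82 to −1.02. Cry2 kept its call in 14 and lost it with library totals alone, at 0.23 while all genes shifted by −0.43. Exons of Cry2 share 295 bases with D930015M05Rik on the opposite strand, which had 42 to 72 reads a library against 1737 to 2174 for Cry2.

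The output factors Dbp and Tef also divided. Dbp (ENSMUSG00000059824.12, chromosome 7, 45705088 to 45710203, plus strand), an activator at D-box elements, had 3.10, 5.00 and 5.41 CPM in the IP against 7.50, 7.96 and 9.57 CPM in total RNA. The IP libraries were all lower, with IP library 1 the lowest, and the log2 fold change was −0.89 ± 0.26 (BH-adjusted p in edgeR = 0.0186). The call was lost without total RNA library 2 (−0.88) or 3 (−0.74) and with the offset for gene length (−0.43). Of the 2993 exonic bases of Dbp, 539 overlap Sphk2 on the opposite strand, a sphingosine kinase gene with 2244 to 4315 reads a library that was itself enriched (1.14 ± 0.13). The strand setting of the counting is not given, and its part in the Dbp value was not tested. Tef (ENSMUSG00000022389.14, chromosome 15, 81802421 to 81826863, plus strand), of the same family, had 85.9, 82.5 and 84.3 CPM in the IP and 65.0, 66.1 and 64.4 CPM in total RNA. The spread within each group was small, and the step of 0.37 ± 0.08 passed the test (BH-adjusted p in edgeR = 0.00445). Neither library totals alone (−0.06) nor the length offset (0.08) gave a call.

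Ratios of 2 clock genes inside a library do not depend on how libraries are scaled to each other. Per kb of exon, Cry2 counts were 0.652 to 0.804 of Cry1 counts in total RNA and 2.73 to 3.67 times Cry1 counts in the IP. Which Cryptochrome was higher in total RNA depends on the length used. Per kb of the transcript with the longest coding sequence (3976 bases for Cry2, 3026 for Cry1), the ratio in total RNA libraries 1, 2 and 3 was 0.939, 1.04 and 1.16, and in the IP 3.93, 5.29 and 3.95. The difference between the groups is the same with either length. On the log2 scale the Cry2 to Cry1 ratio per kb of exon was −0.47 ± 0.15 in total RNA and 1.59 ± 0.24 in the IP (SD, n = 3 each, exact two-sided permutation test p = 0.1). Per1 exceeded Per2 3.16 to 3.94 times in total RNA and 13 to 19.5 times in the IP, and Per3 7.46 to 9.39 times and 33.2 to 46.6 times. The Per2 to Per3 ratio had overlapping groups, at 2.36 to 2.83 in total RNA and 2.40 to 2.70 in the IP. Its log2 difference was 0.02, less than the SD in either group (exact two-sided permutation test p = 0.8). The Clock to Arntl ratio differed by 1.36 and the Dbp to Tef ratio by −1.29 on the log2 scale, IP minus total RNA, without overlap. For the 5 pairs without overlap p was 0.1, the smallest that 3 against 3 libraries allow in an exact permutation test, and 0.12 after Benjamini-Hochberg adjustment over the 6 pairs. No stretch of 50 bases was identical within any pair between the transcripts with the longest coding sequence. Other annotated exons were not compared.

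**Figure D2:**
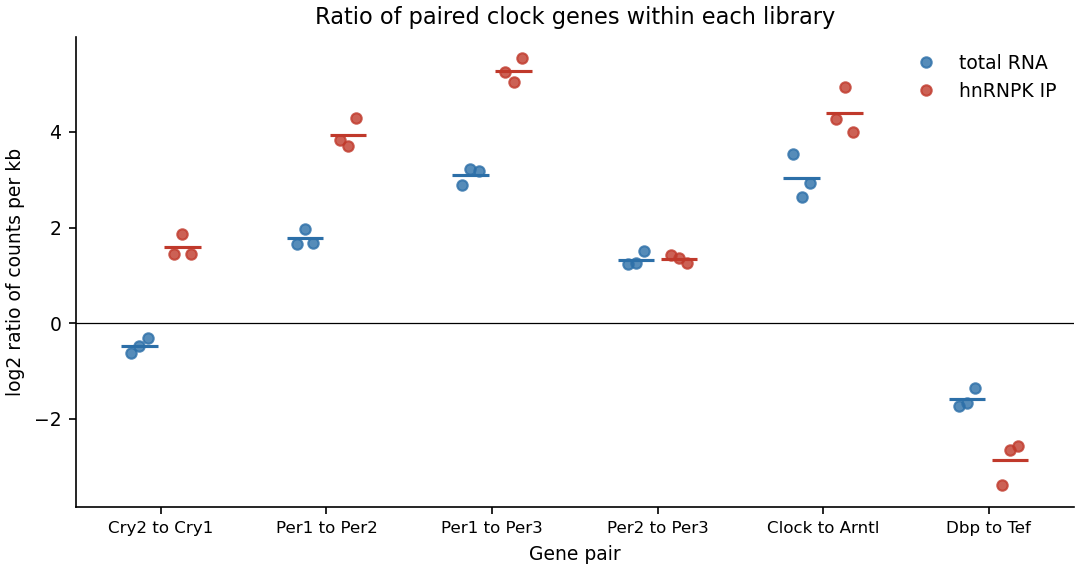
Log2 ratio of counts per kb of exon for 6 pairs of clock genes, with 1 point per library (blue total RNA, red hnRNPK IP) and a bar at the group mean; 0 means equal counts per kb. The Cry2 to Cry1 ratio is higher in every IP library than in any total RNA library, and the Per2 to Per3 groups overlap.

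The order of levels per kb of exon differed between the groups. In total RNA, Clock (9.06 CPM per kb), Per1 (8.41) and Tef (8.28) were highest, and neighbours in that order overlapped between libraries. Cry1 (7.33) and Cry2 (5.30) followed, each apart from its neighbours. Dbp (2.79) overlapped Per2 (2.45), and Arntl (1.11) overlapped Per3 (0.971). In the IP, Per1 came first at 52.8 CPM per kb, apart from Clock at 22.5, Tef at 10.7 and Cry2 at 8.39. Per2 (3.45) overlapped Cry1 (2.80) there, Dbp (1.51) overlapped Per3 (1.35), and Arntl was last at 1.06. These lengths count all annotated exons of a gene, so a gene with long alternative exons that Min6 does not use is understated. Per kb of the transcript with the longest coding sequence, Tef came first in total RNA (15.97 CPM per kb), Cry2 (8.42) overlapped Cry1 (8.09), and Arntl (3.38) lay above Per2 (2.46). In the IP, Per1, Clock, Tef and Cry2 kept the first 4 places in that order, and Per3 was last at 2.17.

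Long genes tended to be higher in the IP, with Spearman's rho of 0.38 between exonic length and log2 fold change across 13477 tested coding genes, which are not independent replicates. The enriched and depleted clock genes differed in length in the same direction. Cry1 (3340 bases) and Dbp (2993 bases), the depleted members, were the shortest, while Clock, at 13727 bases, was longer than 96.2% of these genes. Per1, at 5631 bases, was longer than 64.0%. With an offset for gene length, the median of all genes was 0.09, against −0.07 without it. Per1 stayed at 2.61, Cry2 at 0.53 and Per2 at 0.42. Clock went to 0.63 and Cry1 to −1.02, all still called. So 4 members were enriched and 1 depleted, against 32.5% and 31.2% of all genes.

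**Figure D3:**
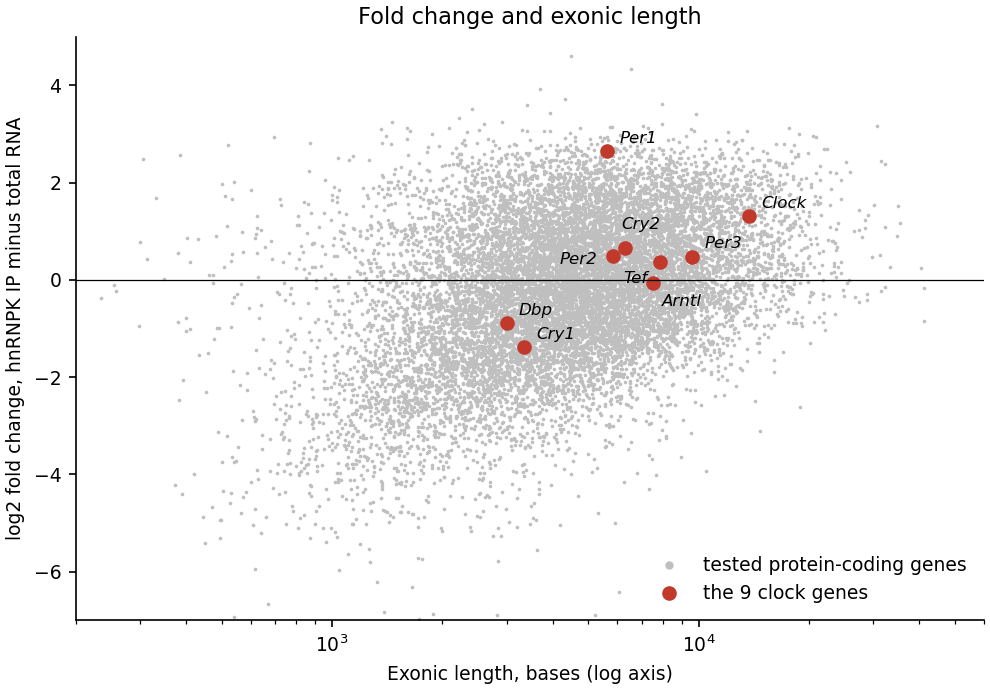
Log2 fold change (hnRNPK IP minus total RNA) against exonic length in bases (log axis) for tested protein-coding genes (grey) and the 9 clock genes (red), with 27 of 13486 genes outside the axes. Cry1 and Dbp are the shortest of the 9 and lie below 0, and Per1 lies near the upper edge at a middle length.

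C-rich sequence was unevenly spread over the 9 mRNAs and did not order them by fold change. The tetramer CCCC, counted on the sense strand with overlapping matches, occurred 18.6 times per kb of the Per1 transcript, a density above 99.0% of tested coding genes, whose median was 4.39. Dbp, which was depleted, came next at 15.2 per kb, above 97.9% of genes. Clock, which was enriched, had the lowest density of the 9 at 1.64 per kb, above 12.4% of genes. The other transcripts had 4.63 (Cry1) to 7.80 (Cry2) per kb. In the longest annotated 3′ UTR, Cry1 had no CCCC in 612 bases, Cry2 had 4.59 per kb and Per1 8.72 per kb, with a median of 3.41 over genes. Arntl had 3.94 per kb there, but none in the 221 bases of 3′ UTR of its transcript with the longest coding sequence. The longest annotated 3′ UTR of Per1 belongs to a shorter coding transcript, and that of the transcript with the longest coding sequence had 11.6 per kb. The most C-rich 30-base windows printed above followed the same order for Per1 and Dbp, with 22 and 21 C. Across 13475 coding genes, Spearman's rho between CCCC density of the transcript and log2 fold change was 0.30. For the number of C in the most C-rich window, without the exon limit, it was 0.42 across 13476 genes, and longer transcripts offer more windows.

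The other genes of the clock pathway, 40 in all and all tested, gave 22 enriched (28.9% of all genes tested) and 9 depleted (33.6% of all genes tested), with a median log2 fold change of 0.72 against −0.07 for all genes. Scaling by library totals gave 16 enriched (20.4% of all genes), 12 depleted (43.0% of all genes) and a median of 0.29. The offset for gene length gave 19 enriched (32.5% of all genes) and 9 depleted (31.2% of all genes). The median was then 0.46, against 0.09 for all genes. The enriched ones included genes for both arms of the loop that controls Arntl transcription, in which REV-ERB proteins repress and ROR proteins activate. Nr1d1, which encodes REV-ERBα, had 66.6, 62.0 and 62.0 CPM in the IP and 13, 15.3 and 15.5 CPM in total RNA, a log2 fold change of 2.12 ± 0.11. Its relative Nr1d2 (REV-ERBβ) was depleted, with 48.2, 58.4 and 50.4 CPM against 103, 89.4 and 87.7 CPM and a log2 fold change of −0.84 ± 0.11. The REV-ERB genes thus parted as the Cryptochromes did, with no overlap between groups for either. Exons of Nr1d1 share 263 bases with Thra on the opposite strand, which was enriched too (1.23). The ROR genes Rorb (2.28 ± 0.30) and Rora (1.36 ± 0.19) were enriched. With the offset for gene length they fell to 1.72 and 0.70 and were still called.

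Hlf, the third PAR bZIP factor beside Dbp and Tef, had the highest fold change of the pathway. It had 76.5, 85.8 and 72.2 CPM in the IP and 10.99, 10.6 and 9.61 CPM in total RNA (log2 fold change 2.91 ± 0.12). Nfil3, which represses at the same D-box elements, was depleted at 15.5, 8.01 and 15.4 CPM against 28.9, 35.2 and 34.7 CPM (−1.34 ± 0.25). The E-box repressors Bhlhe40 (1.19 ± 0.14) and Bhlhe41 (1.19 ± 0.10) were both enriched. Ciart, which also represses CLOCK and ARNTL, was at 0.74 ± 0.25, and that call was lost without any 1 of IP libraries 1 and 3 (0.59 and 0.66) and total RNA libraries 1 and 3 (0.60 and 0.86). With library totals alone (0.31) or the replicate block (0.75) Ciart was not called either. The activators Npas2 and Arntl2, relatives of Clock and Arntl, had at most 1.95 CPM in any library and did not pass (0.98 ± 1.27 and −0.09 ± 0.58). Their unadjusted p in edgeR was 0.463 and 0.878, and 0 of the 2 passed with DESeq2 or limma-voom.

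Of 8 kinase genes that act on PER and CRY proteins, 6 were enriched and 2 depleted (median 0.76), where 28.9% and 33.6% of all genes were. Library totals gave 4 enriched and 2 depleted kinase genes (median 0.33), against 20.4% and 43.0% of all genes. The length offset gave 5 and 1 (median 0.57), against 32.5% and 31.2% of all genes. Gsk3a was highest (2.52 ± 0.12), with 820 exonic bases shared with 9130221H12Rik on the opposite strand, and the regulatory subunit of casein kinase 2, Csnk2b, lowest (−0.91 ± 0.19), a call that the offset for gene length ended at −0.20. Of 7 genes for ubiquitin ligases and proteases, 4 were enriched and 2 depleted (median 0.53), against 28.9% and 33.6% of all genes. Scaling by library totals gave 2 enriched and 2 depleted (median 0.10), against 20.4% and 43.0% of all genes. Under the length offset 2 were enriched and 3 depleted (median −0.27), against 32.5% and 31.2% of all genes. The protease gene Usp7 was depleted (−0.88 ± 0.09). Of 13 cofactor genes, 5 were enriched, a share near the 28.9% of all genes, and 2 depleted, where 33.6% of all genes were. Their median was 0.26. Under library totals 4 were enriched and 5 depleted (median −0.17), against 20.4% and 43.0% of all genes. The acetyltransferase gene Ep300 led them at 2.18 ± 0.15 with TMM factors, and was at 1.46 with the length offset.

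**Figure D4:**
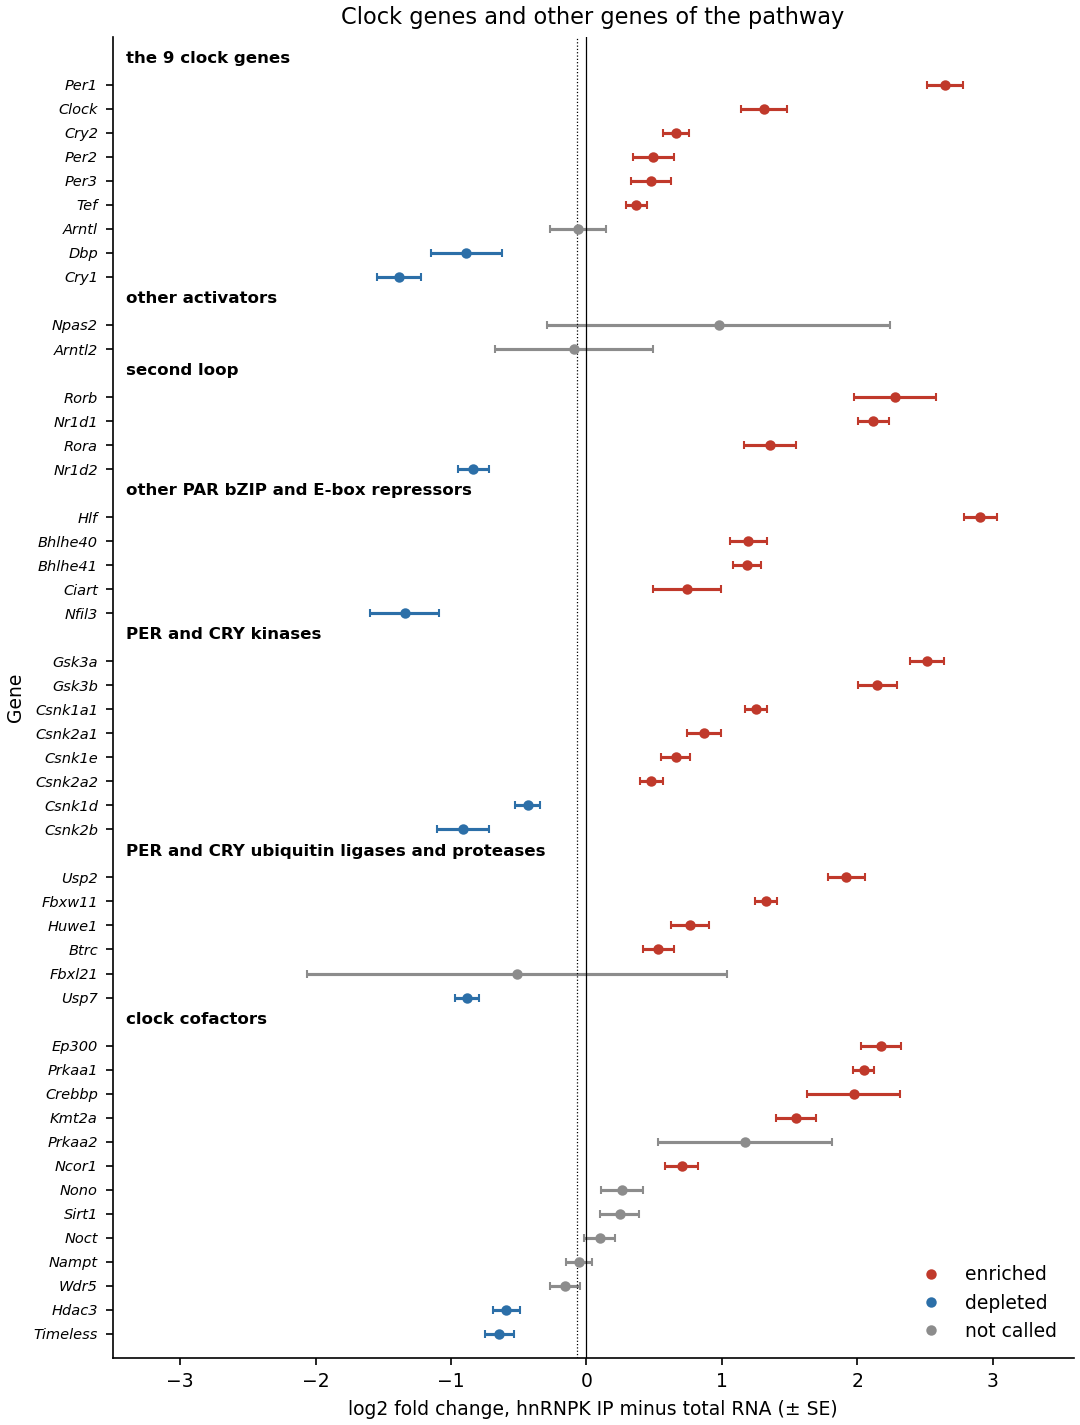
Log2 fold change (hnRNPK IP minus total RNA, ± SE) of the 9 clock genes and 38 other genes of the pathway by group, coloured by the edgeR call, with a dotted line at the median of all genes tested (−0.07). Per1 lies near the top of the scale with Hlf and Gsk3a, and Cry1 and Nfil3 lie at the low end.

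Genes with the most similar profile were sought by Euclidean distance over the 6 libraries, on log2 CPM centred for each gene. For Per1 the nearest protein-coding genes were Vamp2 (distance 0.124), Ppp1r13l (0.142) and Tmem104 (0.175), with log2 fold changes of 2.65, 2.72 and 2.54. Vamp2, a vesicle fusion protein gene at chromosome 11, 69088490 to 69092384, is the neighbour of Per1 on the same strand, with 2832 bases between them. For Cry1 they were Becn1 (0.125), Dstn (0.138) and Phtf1 (0.155), each on another chromosome.

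**Figure D5:**
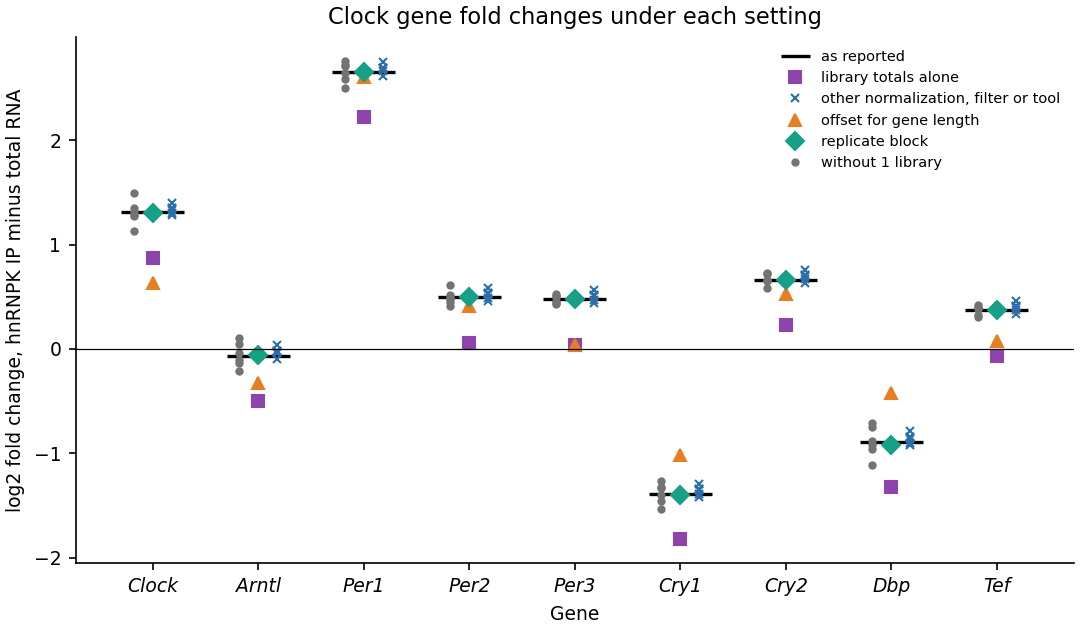
Log2 fold change (hnRNPK IP minus total RNA) of the 9 clock genes as reported (black bar) and under each of the 15 alternatives (symbols by kind). Per1, Clock and Cry1 stay on their side of 0 throughout, and Per2, Per3 and Tef lie close to 0 with library totals alone.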

How the data were processed

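The authors deposited raw counts of reads per gene, 1 table per library. Per the submitters' processing notes, reads were aligned to mm10 with TopHat2 and counted with featureCounts; versions, annotation release, strand setting and handling of shared reads are not given in the sources at hand. Of 53379 identifiers, 53274 matched GENCODE M21 (GRCm38), which gave symbols, exonic lengths and transcripts. Counts were tested with edgeR 4.0.16 in R 4.3.3 (TMM factors, filterByExpr with a minimum count of 10 and a minimum total count of 15, quasi-likelihood F test on group, Benjamini-Hochberg over all genes, adjusted p under 0.05). SE is the log2 fold change divided by the root of F.

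Alternatives were DESeq2 1.42.0, limma-voom (limma 3.58.1), other size factors, library totals, other filters, halved counts (58.6% to 68.7% of counts of 1 to 20 were even), a lowess offset for exonic length, a replicate block and leaving out each library. A sequence region for CCCC and transcript lengths for ratios were added after seeing the data. Libraries of a group differed by more than sampling noise (chi-square per degree of freedom 6.08 to 113), and no label says that they came from separate cultures. The p-values therefore reflect library spread only, possibly technical.

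Members and lists were chosen with earlier results of these data known. Named from the pathway lists were the 4 highest and 4 lowest called genes, the REV-ERB and ROR genes, and the other PAR bZIP and E-box factors; Npas2 and Arntl2 were named after their values were seen. Some genes that this rule names are not reported here. Ratios used a pseudocount of 0.5 counts.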

Additional observations from a re-analysis of the deposited data

How the results depend on the processing

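Clock, Per1 and Cry1 kept direction and call under all 15 alternatives. With library totals alone, 2 members were enriched and 2 depleted, against 20.4% and 43.0% of all genes. Per2 (0.061), Per3 (0.042) and Cry2 (0.23) were then not called and Tef turned to −0.064. With no filter beyond 1 count, Per2 (0.46) and Per3 (0.44) were not called. The offset for gene length left 4 members enriched and 1 depleted, against 32.5% and 31.2% of all genes. Per3 at 0.038, Dbp at −0.43 and Tef at 0.075 were not called with it. With at least 50 counts in 3 libraries Arntl turned to 0.034. Leaving out 1 library at a time gave 4 to 6 enriched and 1 to 2 depleted members, with Per2 at 0.42 to 0.61, Per3 at 0.43 to 0.53, Dbp at −1.11 to −0.71 and Arntl at −0.21 to 0.10. Arntl was above 0 without IP library 2 (0.04) or total RNA library 2 (0.10). The depleted count was 1 without total RNA library 2 or 3. Groups share replicate numbers. Deviations of same-numbered libraries correlated across genes at r of 0.001, −0.07 and 0.12, against −0.19 to 0.14 for libraries of unlike number. With 3 libraries a group, these values cannot show whether the numbers mark pairs. The reported fit used group only. With the replicate block, Per2 (0.49) and Per3 (0.48) were not called, leaving 4 enriched members. Group differences in log2 ratio between clock genes moved by less than the larger group SD under the larger pseudocount and without any 1 library. Dbp to Tef went from −1.29 to −1.03 without IP library 1, a move above its total RNA SD of 0.195. Per2 to Per3 changed sign without IP library 1 (−0.02) or total RNA library 1 (−0.03) or 2 (−0.02). With transcript lengths in place of exonic lengths, chosen after seeing the data, the mean Cry2 to Cry1 log2 ratio in total RNA was 0.057. With counts halved, no member changed its call; Dbp had 105 to 508 reads a library as deposited.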
